A study of Mus musculus with 29 samples.

Results

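The white and brown fat genes described here were 9 gene names of the 55292 in the count files, taken by name as known genes of fat, with earlier results of these data known. The 6 white fat genes were Adipoq, Plin1, Cidec, Cfd, Lep and Retn, and the 3 brown fat genes were Ucp1, Cidea and Elovl3. They were measured in 29 libraries of polyadenylated RNA from whole atria of male mice. In a diet experiment, NaV1.5 transgenic mice on high-fat diet (NaV1.5_HFD, 5 libraries) or regular diet (NaV1.5_RD, 4 libraries) were set beside control mice on high-fat diet (Ctrl_HFD, 4 libraries) or regular diet (Ctrl_RD, 4 libraries). In a second experiment, NaV1.5 mice on high-fat diet supplemented with nicotinamide riboside, a precursor of NAD (NaV1.5_HFD_NR, called NR, 7 libraries), were set beside NaV1.5 mice on high-fat diet with vehicle (NaV1.5_HFD_vehicle, called vehicle, 5 libraries). All 12 libraries of the second experiment therefore share the transgene and the high-fat diet. High-fat diets lasted 4 weeks, and treatments began at 5 weeks of age. The labels do not give the promoter that drives the transgene, the number of founder lines, or whether each library is a separate mouse. The p-values measure the spread between libraries only.

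White adipocytes store triglyceride in one large droplet coated by perilipin and secrete hormones into the blood, whereas brown adipocytes hold many small droplets and burn fatty acids to make heat. In the mouse, fat lies on the outer surface of the heart near the atrioventricular groove and around the great vessels next to the atria. Heart muscle itself burns fatty acids and expresses part of the same lipid machinery. In bulk tissue, fewer cells of a type and less RNA per cell cannot be told apart. The labels record nothing about fat left on or trimmed from the atria, and the part of adjoining fat in the values below was not tested.

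Total counts ranged from 13189995 to 33061018 per library, so that a count of 0 allows at most 0.0907 to 0.227 CPM (a gene's count scaled to a common library total, as counts per 1000000 counted read pairs), taking 3 counts as the limit and covering counting error only. The 4 atrial cardiomyocyte markers Myl4, Myl7, Nppa and Sln had counts in all 29 libraries and summed to 20730 to 51860 CPM. All 16 libraries of batch 1 belong to the diet experiment, of which Ctrl_HFD replicate 4 alone is labelled batch 2. NR replicates 1 to 5 are labelled batch 2, and NR replicates 6 and 7 and all vehicle libraries batch 3. The labels do not say what the libraries of a batch shared. Of the NR libraries, replicate 7 had the highest ventricular marker sum of all 29 libraries, 968 CPM, and replicate 2 alone held Ucp1 above 4.87 CPM.

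The files place Adipoq at chr16:23146536-23158028 on the plus strand, Plin1 at chr7:79720218-79732903 on the minus strand, Lep at chr6:29060220-29073877 on the plus strand and Ucp1 at chr8:83290352-83298452 on the plus strand, in GRCm38. The 250 bases before the RefSeq transcription start of these genes (GRCm38.p6) are shown because the white fat genes varied together across libraries while Ucp1 had at most 2 counts in 26 of them. RefSeq promoters were matched for 7 of the 9 genes. Capitals mark 3 short motifs searched on both strands, CCAAT (the CCAAT box), TTGCNNAA (a pattern of C/EBP sites) and AGGTCA (a nuclear receptor half-site), which do not overlap each other in these sequences.
Adipoq: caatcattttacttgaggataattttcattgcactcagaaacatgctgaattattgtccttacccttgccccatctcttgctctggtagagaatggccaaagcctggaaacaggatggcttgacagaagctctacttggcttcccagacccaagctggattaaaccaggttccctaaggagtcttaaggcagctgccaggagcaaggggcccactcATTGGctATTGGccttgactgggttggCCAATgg
Plin1: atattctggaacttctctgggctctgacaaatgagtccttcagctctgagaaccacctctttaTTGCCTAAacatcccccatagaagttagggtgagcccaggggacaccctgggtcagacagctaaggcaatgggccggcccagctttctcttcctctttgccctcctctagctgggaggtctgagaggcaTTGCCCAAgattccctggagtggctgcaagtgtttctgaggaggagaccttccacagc
Lep: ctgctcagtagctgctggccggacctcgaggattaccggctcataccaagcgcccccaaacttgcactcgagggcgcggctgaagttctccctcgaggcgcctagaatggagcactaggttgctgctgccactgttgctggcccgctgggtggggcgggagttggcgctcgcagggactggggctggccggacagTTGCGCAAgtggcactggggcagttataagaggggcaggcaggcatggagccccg
Ucp1: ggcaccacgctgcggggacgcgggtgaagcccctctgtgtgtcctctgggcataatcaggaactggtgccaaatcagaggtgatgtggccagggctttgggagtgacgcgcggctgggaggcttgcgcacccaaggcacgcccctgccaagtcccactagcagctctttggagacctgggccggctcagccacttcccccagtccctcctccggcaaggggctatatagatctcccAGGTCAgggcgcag
The windows are chr16:23146286-23146535 on the plus strand for Adipoq, chr7:79732777-79733026 on the minus strand for Plin1, chr6:29059971-29060220 on the plus strand for Lep and chr8:83290098-83290347 on the plus strand for Ucp1. CCAAT was found only before Adipoq among the matched genes, at 34, 27 and 7 bases before the start, and in 33.8% of 32851 promoter windows of all genes. TTGCNNAA was found at 187 and 58 bases before the start of Plin1, 55 bases before that of Lep and 198 bases before 1 of 2 starts of Cidec, and in 9.56% of all windows. AGGTCA was found 14 bases before the start of Ucp1 and in 14.0% of all windows. TATAAA and the DR1 pattern, a repeat of AGGTCA with 1 base between, were in none of the windows of the matched genes and in 12.4% and 0.0335% of all windows. Cfd and Retn held none of the 5 motifs. These matches describe letters and are not evidence of binding.

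**Figure D1:**
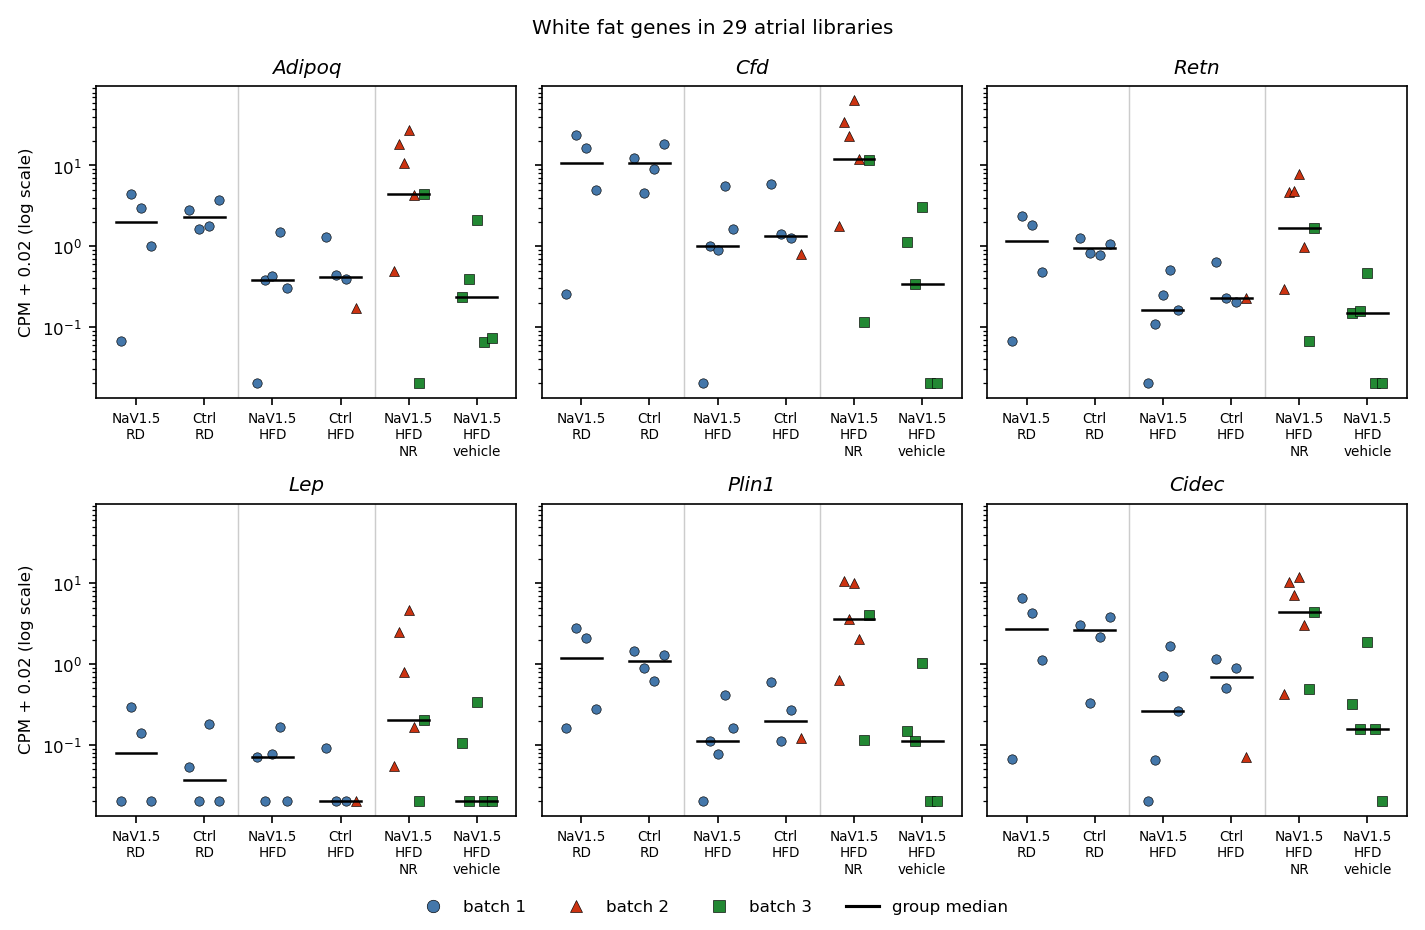
Level of each white fat gene in every library, in CPM with 0.02 added so that 0 can be drawn on the log axis, by group; points are libraries, shapes and colours give the batch, and bars are group medians. NR replicates 2, 3 and 4 (triangles) are the 3 highest libraries for Adipoq, with 18.4, 10.8 and 27.2 CPM, and in the diet experiment both regular diet groups have Adipoq medians above those of the high-fat diet groups.

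Levels of the secreted white fat products differed widely between libraries of the same group. Adipoq encodes adiponectin, a hormone made by adipocytes. Adipoq reached 0.0469, 4.40, 2.94 and 0.979 CPM in the 4 NaV1.5_RD libraries, against 2.77, 1.62, 1.73 and 3.70 CPM in the 4 Ctrl_RD libraries. It reached 0, 0.361, 0.405, 1.47 and 0.288 CPM in the 5 NaV1.5_HFD libraries, against 1.30, 0.423, 0.371 and 0.154 CPM in the 4 Ctrl_HFD libraries. In both pairs the transgenic and control libraries overlapped, and the lowest value of each pair was transgenic. The 7 NR libraries spanned 0 to 27.2 CPM with a median of 4.36, against 0.0453 to 2.12 CPM with a median of 0.213 in the 5 vehicle libraries, and the ranges overlapped because NR replicate 6 had no Adipoq count. Ordered by median, Adipoq was highest in NR, then Ctrl_RD at 2.25 CPM, NaV1.5_RD at 1.96, Ctrl_HFD at 0.397, NaV1.5_HFD at 0.361 and vehicle, and every neighbouring pair of groups overlapped.

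Cfd encodes complement factor D, also called adipsin, a serine protease that adipocytes secrete. It is at chr10:79890853-79892655 and was the highest of the white fat genes, with 23.6 CPM in NaV1.5_RD replicate 2 and 0.234 CPM in NaV1.5_RD replicate 1, against 4.49 to 18.6 CPM in the 4 Ctrl_RD libraries. On high-fat diet its range was 0 to 5.59 CPM in NaV1.5_HFD, against 0.771 to 5.87 CPM in Ctrl_HFD. NR replicates 1 to 7 held 1.78, 34.8, 23.2, 64.3, 11.9, 0.0939 and 11.8 CPM, against 1.11, 0.325, 3.01, 0 and 0 CPM in the 5 vehicle libraries. NR replicates 2, 3, 4, 5 and 7 lay above every vehicle library. All of these but replicate 7 are of batch 2, which holds no vehicle library, so batch and treatment cannot be told apart there. In batch 3 the NR libraries held 0.0939 and 11.8 CPM. The share of all genes with such values was not computed. Retn (chr8:3655770-3660110) encodes resistin, an adipocyte hormone in mice, and ran at lower levels. Its medians were 1.13 CPM in NaV1.5_RD and 0.930 CPM in Ctrl_RD, 0.144 CPM in NaV1.5_HFD and 0.209 CPM in Ctrl_HFD, and 1.65 CPM in NR and 0.128 CPM in vehicle. Lep encodes leptin, the satiety hormone whose level in blood follows fat mass. It held 65, 62 and 16 counts in NR replicates 2, 4 and 3, and at most 5 counts in the other 26 libraries, 13 of which had none.

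The genes of lipid droplet proteins also had their 2 highest values in NR replicates 2 and 4. Plin1 encodes perilipin 1, which coats the adipocyte droplet, and Cidec encodes a protein that fuses droplets into larger ones and lies at chr6:113424634-113435760. Plin1 reached 0.141, 2.77, 2.10 and 0.261 CPM in NaV1.5_RD, against 1.45, 0.873, 0.596 and 1.28 CPM in Ctrl_RD. On high-fat diet it reached 0 to 0.393 CPM in NaV1.5_HFD, against 0.0907 to 0.576 CPM in Ctrl_HFD, which is at most 16 counts in any of these 9 libraries. It was 10.6, 10.1 and 4.04 CPM in NR replicates 2, 4 and 7, the 3 highest of all 29 libraries, against at most 1.03 CPM in vehicle. Cidec medians were 2.71 CPM in NaV1.5_RD and 2.60 CPM in Ctrl_RD, 0.240 CPM in NaV1.5_HFD and 0.675 CPM in Ctrl_HFD, and 4.41 CPM in NR and 0.139 CPM in vehicle.

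The sum of the 6 white fat genes put single libraries far apart within groups. It was 126, 81.5 and 50.2 CPM in NR replicates 4, 2 and 3, but 3.60 and 0.704 CPM in NR replicates 1 and 6. Among NaV1.5_RD libraries it ran from 0.515 CPM in replicate 1 to 40.0 CPM in replicate 2. NaV1.5_HFD replicate 1 and vehicle replicate 5 held 1 white fat count each. Ctrl_RD libraries ran from 8.10 to 28.5 CPM.

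Ratios of the white fat genes to Adipoq can be read in the 14 libraries with at least 20 Adipoq counts, which leaves out the libraries with the least white fat RNA. In these, Retn was 0.212 to 0.612 times the Adipoq count, Plin1 0.267 to 0.926 times, Cidec 0.192 to 1.48 times, Cfd 1.42 to 5.63 times and Lep 0 to 0.173 times. Levels were compared with Adipoq on the log2(CPM + 0.1) scale within batches, as 10 relations in all. In the 16 libraries of batch 1, Pearson's r with Adipoq was 0.984 for Cfd, 0.974 for Retn, 0.914 for Plin1 and 0.906 for Cidec, and Spearman's rho 0.941, 0.979, 0.915 and 0.915 in the same order. Each had a permutation p of 2e-05, the smallest that 100000 resamples can give, and 5e-05 after Benjamini-Hochberg adjustment over the 10. Without the 2 libraries farthest from the median of Adipoq, r was 0.975, 0.968, 0.946 and 0.843. In the 7 libraries of batch 3, r was 0.937 for Cfd, 0.956 for Retn, 0.939 for Plin1 and 0.842 for Cidec, and rho was 0.847, 0.883, 0.703 and 0.571. The exact permutation p of r, adjusted over the 10, was 0.0106, 0.00794, 0.0181 and 0.0546 in that order (0.00635, 0.00397, 0.0127 and 0.0437 before adjustment), and that of rho 0.0423, 0.0302, 0.128 and 0.25. Without the 2 farthest libraries r was 0.701, 0.785, 0.464 and -0.0801, so the batch 3 relations of Plin1 and Cidec rest on those libraries. Batch 2 held 5 NR libraries and 1 other, and was not tested. The batch 1 libraries come from 4 diet groups, whose medians differ, and within-group relations were not computed with 4 or 5 libraries each.

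**Figure D2:**
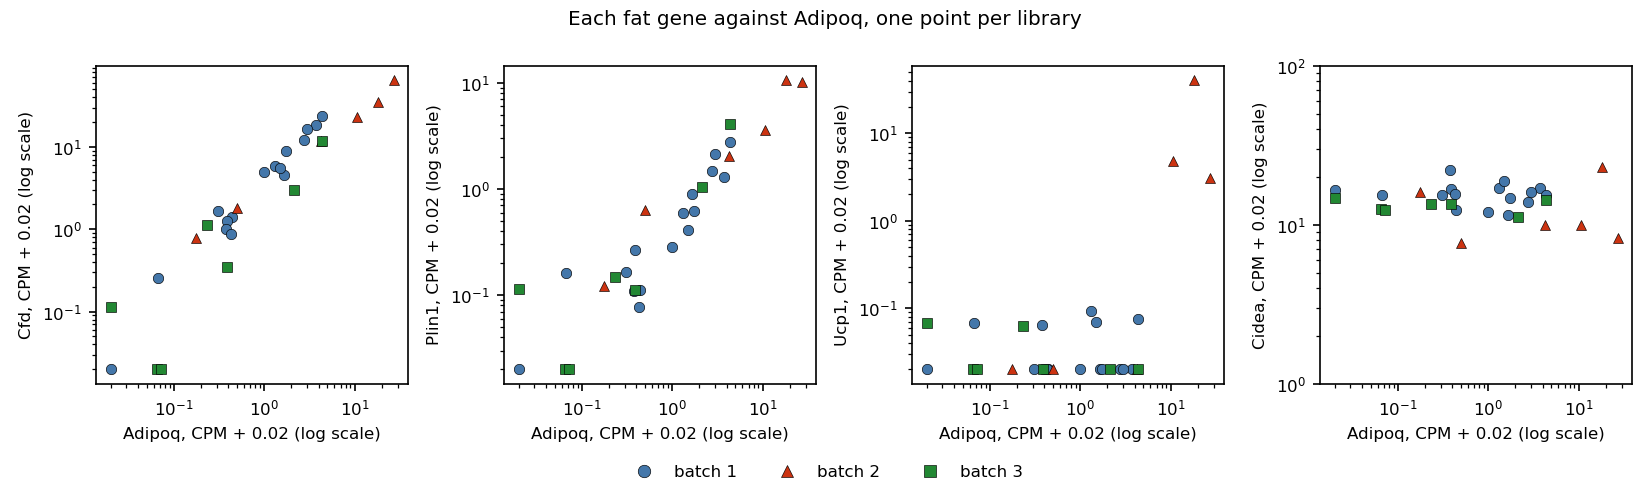
Cfd, Plin1, Ucp1 and Cidea against Adipoq in each of 29 libraries, both axes in CPM with 0.02 added, on log scales; colours and shapes give the batch. Cfd and Plin1 rise along with Adipoq, Ucp1 leaves the bottom of its panel in 3 batch 2 libraries, and Cidea lies between 7.64 and 23.2 CPM at every Adipoq level.

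The 3 brown fat genes differed in how many libraries held them. Ucp1 encodes uncoupling protein 1, which lets protons back across the mitochondrial inner membrane so that respiration gives heat, and is the defining gene of brown and beige adipocytes. It held 1063 counts, or 40.5 CPM, in NR replicate 2, 100 counts (4.87 CPM) in NR replicate 3 and 41 counts (3.11 CPM) in NR replicate 4. No other library held more than 2 Ucp1 counts, and 19 of the 29 held none, including NR replicate 5 of the same batch. The NR and vehicle ranges overlapped at 0, and the 3 NR libraries with Ucp1 are all of batch 2, which holds no vehicle library. Elovl3, at chr19:46131897-46135694, encodes an elongase of very long chain fatty acids that is induced in brown fat by cold. It had 0 counts in 25 libraries and at most 3 in any, and 0 in NR replicate 2. Its exons share 10 of 1975 bases with Pitx3 on the opposite strand, and the exons of the other 8 genes share none with another gene.

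Cidea encodes a lipid droplet protein of mouse brown adipocytes, and its level in these atria did not follow that of Adipoq in the 2 batches where the relation was computed. It lies at chr18:67343604-67367785 and had at least 108 counts in all 29 libraries. Its means were 14.7 ± 1.82 CPM in NaV1.5_RD and 14.3 ± 2.31 CPM in Ctrl_RD (SD, n = 4 each). On high-fat diet they were 17.7 ± 2.83 CPM in NaV1.5_HFD (SD, n = 5) and 15.5 ± 2.18 CPM in Ctrl_HFD (SD, n = 4). In the second experiment they were 12.6 ± 5.43 CPM in NR (SD, n = 7) and 12.6 ± 0.959 CPM in vehicle (SD, n = 5). NaV1.5_HFD replicate 1 had 328 Cidea counts beside 1 count of all white fat genes together. Its r with Adipoq was -0.140 in batch 1 (rho -0.168) and -0.147 in batch 3 (rho -0.143), with permutation p between 0.539 and 0.783, or 0.599 to 0.783 after adjustment, exact in batch 3. The batch 2 NR libraries other than replicate 2 held 7.64 to 9.97 CPM, lower than each of the other 25 libraries, and NR replicate 2, the library with the most Ucp1, held 23.2 CPM, the highest of all 29. Per kilobase of exon length, Cidea had a median of 13.1 CPM over 29 libraries, against 3.27 for Cfd, 0.709 for Adipoq, 0.467 for Cidec, 0.284 for Retn, 0.0844 for Plin1 and 0.0102 for Lep.

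**Figure D3:**
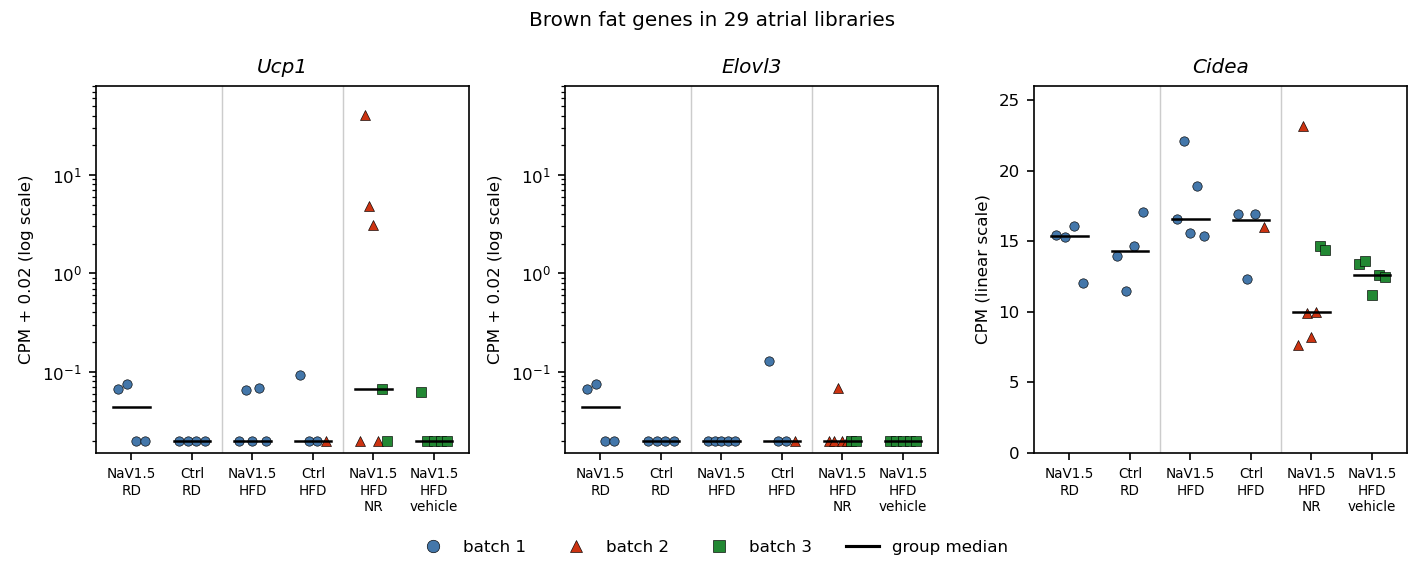
Level of each brown fat gene in every library, by group; Ucp1 and Elovl3 are in CPM with 0.02 added on a log axis and Cidea in CPM on a linear axis from 0; points are libraries, shapes and colours give the batch, and bars are group medians. Ucp1 stands above 3 CPM in 3 NR libraries of batch 2, Elovl3 stays at or near 0, and Cidea has counts in every library.

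The share of Ucp1 beside Adipoq was computed in the libraries where Ucp1 appeared. Of the summed Ucp1 and Adipoq counts, Ucp1 made up 68.8% in NR replicate 2 (exact 95% binomial interval 66.4 to 71.1%), 31.2% in NR replicate 3 (26.1 to 36.5%) and 10.25% in NR replicate 4 (7.46 to 13.6%). These intervals cover counting error only, and sequenced read pairs are not independent molecules. In NR replicate 5 there were 0 Ucp1 counts beside 115 of Adipoq, which allows up to 3.16%, and in Ctrl_RD replicate 4 there were 0 beside 95, which allows up to 3.81%. NR replicate 4 had more Adipoq than NR replicate 2, at 27.2 and 18.4 CPM, and less Ucp1, at 3.11 and 40.5 CPM.

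NR replicate 2 lay outside the range of the other 4 NR libraries of batch 2 in more genes than Ucp1. The genes in this account were picked after their values were seen and carry no test. Otop1, a proton channel of brown fat, had 0.915 CPM against 0 to 0.487 in the other 4 and had no count in 24 of the 29 libraries. Slc27a2, a fatty acid transporter, had 0.572 CPM against 0 to 0.146. Of the white list, 10 of 25 genes lay above the range of the other 4 and 0 below it, and of the brown list 4 of 14 lay above and 2 below. Any single library is the highest or lowest for some genes. The share over all genes was not computed, so no result about the lists is read from these counts. Gpd1, glycerol-3-phosphate dehydrogenase, was at 52.9 CPM against 9.53 to 21.001, Fasn, fatty acid synthase, at 88.8 against 36.5 to 48.8, and Pck1, the enzyme of glyceride-glycerol synthesis in fat, at 31.9 against 0.685 to 17.8. Other lipid synthesis genes lay within the range, with Acly, ATP citrate lyase, at 78.2 CPM against 66.2 to 78.8, Scd1, a fatty acid desaturase, at 162 against 75.2 to 170, and Dgat2, which makes triglyceride, at 59.3 against 53.3 to 63.7. The 2 brown list genes below the range were Cox7a1, a subunit of cytochrome c oxidase, at 554 CPM against 618 to 724, and Kcnk3, a potassium channel, at 83.3 against 89.8 to 114. Dio2, the deiodinase that makes active thyroid hormone, lay within the others at 21.3 CPM against 9.15 to 36.9, and Prdm16, a regulator of brown adipocyte identity, just above them at 4.92 against 3.02 to 4.46. Myl2, the ventricular myosin light chain, was 165 CPM against 5.64 to 13.6, and its part in these values was not tested. Adipoq itself was 18.4 CPM there, within the 0.480 to 27.2 CPM of the other 4.

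**Figure D4:**
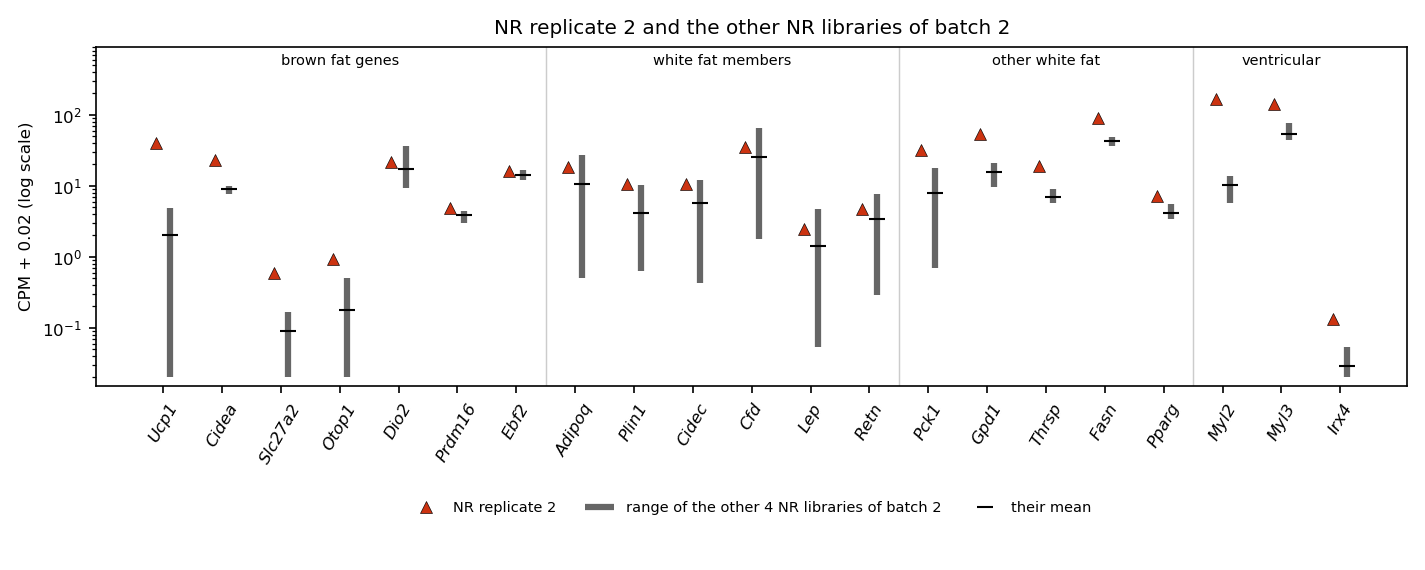
Level of selected genes in NR replicate 2 (triangles) and in the other 4 NR libraries of batch 2 (grey bars, range; black ticks, mean), in CPM with 0.02 added on a log axis; genes were picked after their values were seen. Ucp1 (40.5 CPM), Cidea (23.2), Gpd1 (52.9) and Myl2 (165) lie above the whole range of the other 4, and Adipoq, Cfd, Lep and Retn lie within it.

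The first comparison asks what the transgene changes on regular diet. Of the 9 genes, 6 passed the filter on low counts in each experiment and were tested (Adipoq, Plin1, Cidec, Cfd, Retn and Cidea), and Lep, Ucp1 and Elovl3 did not pass it. In NaV1.5_RD over Ctrl_RD, edgeR's quasi-likelihood test with Benjamini-Hochberg adjustment over 16168 genes called 0 of the 6 members, beside 0.0124% of all genes tested. An unadjusted p under 0.05 was held by 0 members and by 988 of all genes. DESeq2 called 0 of 6, beside 0.17% of all genes. Log2 differences ran from -0.25 (Adipoq, SE 0.78) to 0.32 (Cidec, SE 0.93), with a median of 0.14 against 0.01 for all genes, and adjusted p from 0.974 to 0.999. Of the receptors for these hormones, Cdh13, which binds adiponectin, differed by -0.25 (SE 0.10, adjusted p = 0.791) and Lepr, the leptin receptor, by -0.22 (adjusted p = 0.946). Among other fat genes the smallest p belonged to Agpat2 (-0.25) and Gpd1 (-0.36) of the white list and Prdm16 (0.75) and Cox8b (0.37) of the brown list, with adjusted p of 0.754, 0.798, 0.754 and 0.818. None of the 4 receptors, 22 white list genes and 11 brown list genes tested passed.

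On high-fat diet the transgenic and control atria were compared in NaV1.5_HFD over Ctrl_HFD. All 5 white fat genes tested had negative log2 differences, from -0.56 (Adipoq, SE 0.98) to -1.15 (Plin1, SE 1.04), and Cidea a difference of 0.17 (SE 0.14). edgeR called 0 of 6, beside 0.0866% of all genes, with adjusted p from 0.848 to 0.941. An unadjusted p under 0.05 was held by 0 members and by 1301 of all genes. DESeq2 also called 0 of 6, beside 0.604%. The batch term gives Ctrl_HFD replicate 4, the only library of its batch here, no weight in these differences. Fabp4, a fatty acid carrier of adipocytes and capillary endothelium, differed by 0.64 (SE 0.14, adjusted p = 0.0771) and Gpd1 by -0.56 (SE 0.16, adjusted p = 0.252), and neither passed. Of the receptors, Cdh13 differed by -0.30 (adjusted p = 0.439) and Lepr by 0.38 (adjusted p = 0.871), and of the brown list Ppara by -0.83 (adjusted p = 0.357) and Dio2 by 1.00 (adjusted p = 0.570).

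Diet in NaV1.5 mice gave the largest differences of the diet experiment among the fat genes, in NaV1.5_HFD over NaV1.5_RD. The 5 white fat genes had lower values on high-fat diet, with log2 differences of -3.18 for Plin1 (SE 0.84), -2.62 for Cfd (SE 1.02), -2.56 for Retn (SE 0.77), -2.50 for Cidec (SE 1.02) and -2.03 for Adipoq (SE 0.85). None passed in edgeR, where 0 of 6 members were called beside 1.13% of all genes, and the adjusted p was 0.067 for Plin1, 0.0911 for Retn and 0.191 to 0.252 for the others. All 6 had an unadjusted p under 0.05 in edgeR, as did 3063 of all 16168 genes. Cidea had a difference of 0.28 (SE 0.13). The members' median was -2.53, against -0.01 for all genes tested. DESeq2 gave an adjusted p to 2 of the 6 members and called neither, beside 6.85% of all genes given one. With its independent filtering off, chosen after seeing the data, DESeq2 called Plin1 (adjusted p = 0.00582) and Retn (adjusted p = 0.0220), beside 4.63% of all genes. The groups overlapped for every member, since NaV1.5_RD replicate 1 held 11 white fat counts and NaV1.5_HFD replicate 4 held 199. Without NaV1.5_RD replicate 1, edgeR called Plin1 and Retn beside 0.402% of all genes. Without NaV1.5_RD replicate 4 it called the same genes, Plin1 and Retn, beside 6.92%, and without NaV1.5_HFD replicate 4 it called Plin1 beside 3.14%. Myl2, Myl3, Myh7 and Irx4, the ventricular markers, summed to 224 to 581 CPM in NaV1.5_HFD and 367 to 832 CPM in NaV1.5_RD, and the 6 epicardial markers to 456 to 616 CPM in NaV1.5_HFD and 277 to 624 CPM in NaV1.5_RD. The 4 atrial cardiomyocyte markers summed to 38910 to 40558 CPM in NaV1.5_HFD and 43900 to 51860 CPM in NaV1.5_RD, without overlap. Of these, Nppa, atrial natriuretic peptide, fell by 0.44 log2 units (edgeR, SE 0.0892, adjusted p = 0.0279), and the other 3 did not pass. Without 1 of 5 libraries (NaV1.5_HFD replicates 2 and 3, NaV1.5_RD replicates 1, 2 and 3) the call of Nppa was lost, with an adjusted p of up to 0.0941. The part of these markers in the differences was not tested.

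Other fat genes in the diet comparison of NaV1.5 mice included the only calls of the receptor, white fat and brown fat lists. Fasn fell by 0.64 in log2 units, with an SE of 0.14 and an adjusted p of 0.0331 in edgeR. It had 20.96, 20.5, 17.9, 23.4 and 17.8 CPM in NaV1.5_HFD, against 29.3, 40.9, 35.1 and 21.7 CPM in NaV1.5_RD. Pnpla2, the lipase that starts triglyceride breakdown in fat and heart, fell by 0.63 log2 units, with an SE of 0.14 and an adjusted p of 0.0396. It had 332, 235, 247, 334 and 261 CPM in NaV1.5_HFD, against 434, 464, 557 and 307 CPM in NaV1.5_RD. In both genes only NaV1.5_RD replicate 4 lay within the NaV1.5_HFD range. These are 2 of 22 white list genes tested, both lower, beside 182 of all 16168 genes (1.13%), of which 106 were lower. The calls depended on single libraries. With a library left out, Fasn lost its call in 6 of 17 fits, namely without NaV1.5_HFD replicate 2, 3 or 5 or NaV1.5_RD replicate 1, 2 or 3, and its adjusted p in edgeR ran from 0.00810 to 0.127. Pnpla2 lost its call without each of the same 6 libraries and without Ctrl_HFD replicate 2 or Ctrl_RD replicate 1 or 2, so in 9 of 17 fits, with an adjusted p in edgeR of 0.00897 to 0.161. Fasn was also not called in 1 fit of all 29 libraries (edgeR, adjusted p = 0.0727), nor Pnpla2 with no low-count filter (0.0556) or with a replicate block (0.0673). The fit with the block also left out NaV1.5_RD replicate 4 and Ctrl_RD replicate 1, which lack a replicate number in the labels. In NaV1.5_RD replicate 1, which had 11 white fat counts, Fasn was 29.3 CPM and Pnpla2 434 CPM. Of the brown list, 0 of 11 passed, with Fabp3, the heart fatty acid carrier, at 0.32 (adjusted p = 0.154) and Prdm16 at -0.58 (adjusted p = 0.246). Of the receptors 0 of 4 passed, with Cdh13 at -0.15 (adjusted p = 0.411) and Adipor2, an adiponectin receptor, at 0.04 (adjusted p = 0.803).

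**Figure D5:**
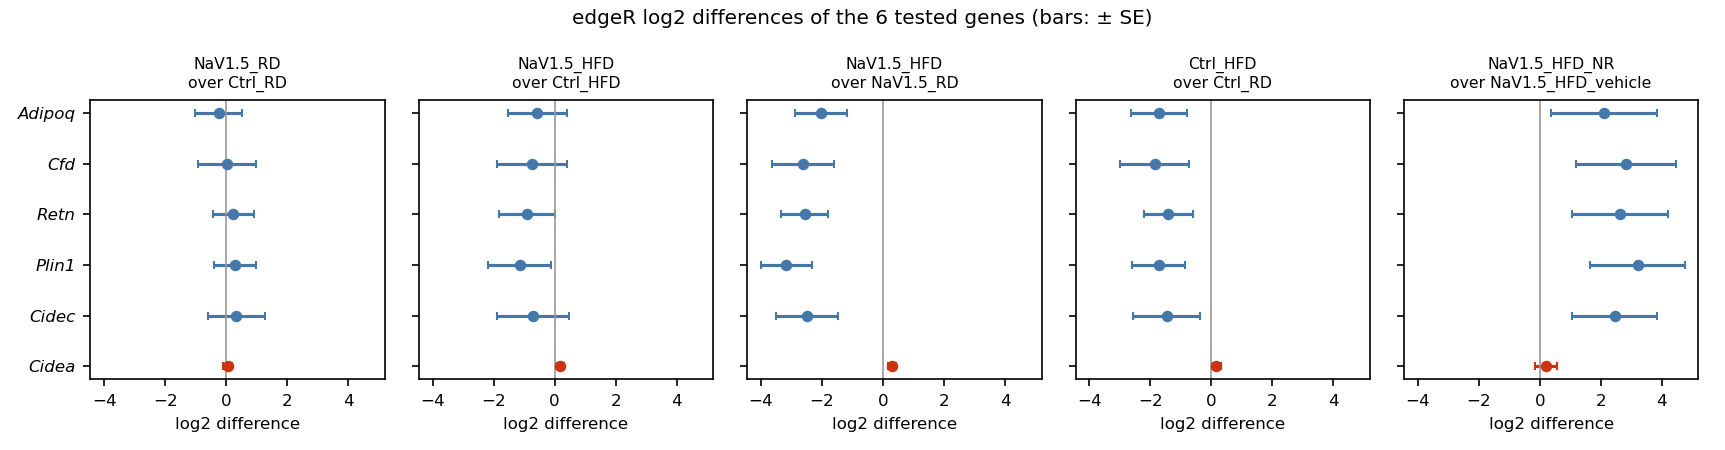
Log2 differences fitted by edgeR for the 6 tested genes in 5 comparisons, with bars of 1 SE on each side; blue points are white fat genes and the red point is Cidea. White fat genes lie from -2.03 (Adipoq) to -3.18 (Plin1) in NaV1.5_HFD over NaV1.5_RD and from -1.41 (Retn) to -1.86 (Cfd) in Ctrl_HFD over Ctrl_RD, and none of the 30 differences passed the adjusted threshold.

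In control mice the same diet comparison, Ctrl_HFD over Ctrl_RD, had log2 differences of -1.86 for Cfd (SE 1.13), -1.73 for Plin1 (SE 0.86), -1.71 for Adipoq (SE 0.92), -1.47 for Cidec (SE 1.11) and -1.41 for Retn (SE 0.80). edgeR called 0 of 6 and 0% of all 16168 genes, of which 1372 had an unadjusted p under 0.05. The members had adjusted p from 0.595 to 0.780, and 0 had an unadjusted p under 0.05. Here and in the interaction below, the batch term again gives Ctrl_HFD replicate 4 no weight. Without the batch term, edgeR also called 0 of 6, beside 0.00619% of all genes. In that fit 3 members had an unadjusted p under 0.05, beside 1569 of all genes. DESeq2 gave none of the 6 an adjusted p and called 0.633% of the genes given one. With its independent filtering off it called 0 of 6, beside 0.0619% of all genes. In that fit 1 member had an unadjusted p under 0.05, beside 1421 of all genes. Adipoq ran from 0.154 to 1.30 CPM in Ctrl_HFD and 1.62 to 3.70 CPM in Ctrl_RD. Plin1 ran from 0.0907 to 0.576 and 0.596 to 1.45 CPM, and Retn from 0.186 to 0.612 and 0.759 to 1.25 CPM. Cidec, at 0.0514 to 1.15 and 0.312 to 3.85 CPM, and Cfd, at 0.771 to 5.87 and 4.49 to 18.6 CPM, overlapped. The share of all genes with separate ranges was not computed, and these genes varied together across libraries. The test of whether the diet difference itself depended on the transgene called 0 of 6 members and 0% of all genes in edgeR (366 genes had an unadjusted p under 0.05), and 0 of 6 and 0% in DESeq2. No member had an unadjusted p under 0.05 in either tool. Its estimates were -0.31 (SE 1.24) for Adipoq and -1.44 (SE 1.24) for Plin1. In the Ctrl diet comparison the white list genes of smallest p were Fasn (-0.46) and Pnpla2 (-0.44), those of the brown list Plin5 (-0.44) and Ppara (0.70) and those of the receptors Lepr (-0.69) and Cdh13 (-0.11), with adjusted p of 0.524 to 0.805. In the interaction they were Fabp4 (0.46), Lipe (0.35), Prdm16 (-0.92), Ppara (-0.78), Lepr (0.60) and Adipor2 (0.05), all with an adjusted p of 1.00.

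The NR comparison asks what nicotinamide riboside changes in NaV1.5 mice on high-fat diet. With batch as a term it rests on NR replicates 6 and 7 against the 5 vehicle libraries, and those 2 NR libraries differed widely, with 0 and 95 Adipoq counts and 2 and 256 Cfd counts. The white fat genes had log2 differences of 2.11 (Adipoq, SE 1.73) to 3.21 (Plin1, SE 1.55), and Cidea 0.19 (SE 0.36). edgeR called 0 of 6 members, beside 0.425% of 16482 genes, with adjusted p from 0.502 to 0.904. An unadjusted p under 0.05 was held by 0 members and by 1829 of all genes. DESeq2 gave 3 of the 6 an adjusted p and called 0, beside 2.12% of all genes given one. Without NR replicate 7 the differences were -6.54 for Adipoq, -2.98 for Cfd and -1.09 for Plin1. The 5 batch 2 NR libraries against vehicle gave Adipoq 12.2 ± 10.8 CPM (SD, n = 5) in NR and 0.560 ± 0.880 CPM (SD, n = 5) in vehicle. In that comparison 4 of 5 members tested were called, beside 60.4% of all genes, and batch and treatment cannot be told apart there. Without a batch term, over all 12 libraries, 5 of 6 were called beside 26.6% of all genes.

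Summed markers of neighbouring tissues differed between the NR batches. The 6 epicardial and mesothelial markers, led by Upk3b, a uroplakin of mesothelium, all had counts in every library and summed to 1519 to 2182 CPM in the 5 NR libraries of batch 2 and 284 and 626 CPM in NR replicates 6 and 7, against 306 to 415 CPM in vehicle. The 5 skeletal muscle markers summed to 24.5 to 31.5 CPM in the NR libraries of batch 2 and 7.18 and 9.65 CPM in NR replicates 6 and 7, against 7.48 to 8.91 CPM in vehicle. Actn3 made up most of these sums, at 19.7 to 29.1 CPM in NR of batch 2 against 4.32 to 5.32 CPM in vehicle. Ctrl_HFD replicate 4, the batch 2 library of the diet experiment, had an epicardial sum of 553 CPM and Actn3 at 6.89 CPM. Mylpf and Tnnt3 overlapped vehicle, Mylpf at 1.31 to 1.99 CPM against 0.993 to 1.86 CPM. Myh1 was at most 0.152 CPM and Myh4 at 0 in all NR and vehicle libraries. The ventricular markers summed to 212 to 968 CPM in NR, highest in replicate 7, against 467 to 655 CPM in vehicle, with Irx4, a ventricular transcription factor, at 0.965 CPM in NR replicate 7 and at 0 in 23 libraries. Ms4a1, which marks B cells, had its highest value, 11.7 CPM, in NR replicate 4, the library with the most Adipoq. Rag1, which marks developing lymphocytes, was at 0 in 25 libraries and Sftpc, which marks lung alveoli, at 0 in 27. The part of these tissues in the fat gene values was not tested. In the NR comparison with the batch term, 0 of 24 white list genes, 0 of 12 brown list genes and 0 of 4 receptors passed, beside 0.425% of all genes. The smallest p belonged to Cebpa (0.43, adjusted p = 0.397) and Dgat2 (-0.27, adjusted p = 0.497), Fabp3 (0.26, adjusted p = 0.395) and Cox8b (0.18, adjusted p = 0.527), and Adipor2 (-0.02, adjusted p = 0.966) and Cdh13 (0.02, adjusted p = 0.973).

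Receptors for the fat hormones had counts in all libraries. Adipor1 and Adipor2, the adiponectin receptors, spanned 159 to 234 CPM and 85.5 to 111 CPM over 29 libraries, and Cdh13 140 to 337 CPM, with the lowest Cdh13 value in an NR library. Lepr spanned 1.25 to 8.91 CPM. In the NR libraries of batch 2, Cdh13 was at 140 to 174 CPM, against 268 to 319 CPM in vehicle. Lepr was at 5.67 to 8.91 CPM there, against 2.67 to 5.44 CPM in vehicle. Adipor1 and Adipor2 overlapped vehicle. The relation of the receptors to the hormone levels was not tested. Many genes of the white list were likewise abundant in every library, such as Lpl, lipoprotein lipase, at 990 to 2989 CPM and Fabp4 at 287 to 678 CPM. The NR libraries of batch 2 had lower values than vehicle for some abundant white list genes, named here after their values were seen. In these, Plin4, a droplet protein, was at 88.5 to 122 CPM against 329 to 492.8 CPM in vehicle. Lpl was at 990 to 1185 CPM in them against 2293 to 2989 CPM in vehicle, and Lipe, hormone-sensitive lipase, at 20.6 to 30.3 CPM against 37.7 to 56.3 CPM. The 25 white list genes summed to 1996 to 2612 CPM in NR of batch 2, against 3683 to 4397 CPM in vehicle. Lpl was the most abundant of them in each of these libraries. The list was not lower as a whole. Scd1 and Cebpa, also named after their values were seen, were higher in NR of batch 2 without overlap. Scd1 was at 75.2 to 170 CPM there against 37.8 to 57.4 CPM in vehicle. Cebpa was at 9.60 CPM or more there against 7.32 CPM or less in vehicle. Over all genes, edgeR called 60.4% between NR of batch 2 and vehicle, and the share of all genes without overlap was not computed. Batch and treatment cannot be told apart in these values. Other white list genes, likewise named after their values were seen, were low and had their highest value in NR replicate 4, namely Adrb3, the beta-3 adrenergic receptor, at 0.0506 to 2.65 CPM, Slc7a10, an amino acid transporter, at 0.0426 to 2.12 CPM and Acvr1c, an activin receptor, at 0 to 3.56 CPM.

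The genes whose levels were most like Adipoq over the 17 diet libraries, by Pearson's r of log2 CPM among 14939 genes, were Car3 (carbonic anhydrase 3, r = 0.976), Pck1 (0.851), Hp (haptoglobin, 0.809), Mri1 (0.808) and Chadl (0.795). These r share libraries, depth and group differences and are a description. Over the 12 NR and vehicle libraries the r of the same genes was 0.954, 0.979, 0.957, 0.692 and 0.529. Car3 ran from 0.203 to 21.3 CPM in the diet libraries and reached 106 CPM in NR replicate 4, whereas Mri1 stayed at 10.7 to 17.8 CPM. For Ucp1 no such pattern can be read from the diet libraries, which held at most 2 counts. Over the 12 NR and vehicle libraries the gene most like it was Gm6969, a predicted gene, with r = 0.895, and 3 libraries of batch 2 held nearly all of the Ucp1 counts there; its r was 0.0835 in the diet libraries.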

How the data were processed

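Per the labels' protocols, miRNeasy micro kit RNA (500 ng or more) went into stranded TruSeq libraries after poly-A selection. The authors deposited, for each gene name, the raw count of its read pairs. Per the file headers, featureCounts 2.0.1 counted them against the GENCODE M25 mouse annotation and without using strand. FastQC 0.11.7, STAR 2.7.6a and builds GRCm38 and mm10 are named in the submitters' processing notes. Reads of genes that overlap on opposite strands cannot be told apart.

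Groups and batches come from the labels, and NaV1.5_RD replicate 4 and Ctrl_RD replicate 1 lack a number there, so theirs are names only. CPM were computed from library totals of 13189995 to 33061018 counts. Genes were tested with edgeR 4.0.16 in R 4.3.3 (2-sided quasi-likelihood F-test, filterByExpr, TMM factors of 0.903 to 1.12, Benjamini-Hochberg adjustment, threshold 0.05), with group and batch as terms, in one fit of 17 diet libraries and one of 12 NR and vehicle libraries. The SE is the absolute log2 difference divided by the square root of F. The fits were tested on simulated data. Alternatives were DESeq2 1.42.0, its size factors, other filters, no batch term, single batches, 1 fit, a replicate block and each library left out. Correlations used SciPy 1.17.1 in Python 3.11.15, and figures matplotlib 3.10.9.

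The members and gene lists were chosen with earlier results of these data known. From the receptor, white fat and brown fat lists, genes past the threshold are named, up to 8, otherwise the 2 with the smallest p. Of the brown list, 14 of 15 genes were found by name. A marker of the thymus and lymph node list, and the sum of that list, are not reported here.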

Additional observations from a re-analysis of the deposited data

Results flagged for a closer look

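Of 40 sets of 1 gene in 1 group of 4 to 7 libraries, 8 had a library whose gap to the next was large against the group's range by Dixon's criterion. For normally distributed values chance gives this in about 1 set in 20. Many of these CPM lie near 0 and are skewed, so that rate need not hold here. The sets are not independent, because 4 of the 8 are 1 library. In vehicle replicate 3, Adipoq was 2.12 CPM, Plin1 1.03 CPM, Cidec 1.86 CPM and Lep 0.321 CPM, each far above the other 4 vehicle libraries. In Ctrl_HFD replicate 1, Cfd was 5.87 CPM and Retn 0.612 CPM, far above the other 3 Ctrl_HFD libraries. In NaV1.5_HFD replicate 4, Adipoq was 1.47 CPM, far above the other 4. In NR replicate 2, Ucp1 was 40.5 CPM, far above the other 6 NR libraries. No difference between the diet effects of the 2 genotypes passed the interaction test for a tested gene.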

How the results depend on the processing

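Over alternatives other than leaving out a library, 293 of 314 values kept their direction and their side of the threshold, 16 passed it newly and 5 changed sign; over 577 values with a library left out, 549, 5 and 23 did. Members called in NaV1.5_HFD over NaV1.5_RD ranged from 0 to 2 with a library left out and were 2 by DESeq2 without independent filtering. In NR over vehicle they were 5 without the batch term, 5 with a replicate block and no batch term (beside 58.8% of all genes), and 4 for NR of batch 2 against vehicle; calls rose there for all genes too. Replicate numbers do not pair the libraries (correlations of their deviations were -0.076 to 0.165), and block and batch together could not be fitted for NR. In the diet experiment the fit with the replicate block also left out NaV1.5_RD replicate 4 and Ctrl_RD replicate 1, which lack a number. With the replicate block, Adipoq in NaV1.5_RD over Ctrl_RD was 0.80 and Cidec in Ctrl_HFD over Ctrl_RD 0.51, neither passing. Cidea in NR over vehicle was -0.15 without the batch term, -0.42 with the replicate block and no batch term, and -0.32 for NR of batch 2. DESeq2 gave no adjusted p to any member in Ctrl_HFD over Ctrl_RD.

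With a library left out, log2 differences that changed sign ranged in NaV1.5_RD over Ctrl_RD from -0.93 to 0.17 for Adipoq, -0.38 to 0.69 for Plin1, -0.40 to 0.74 for Cidec, -0.63 to 0.43 for Cfd, -0.38 to 0.66 for Retn and -0.0421 to 0.16 for Cidea. In NaV1.5_HFD over Ctrl_HFD they ranged from -1.48 to 0.31 for Adipoq and -1.77 to 0.44 for Cfd, and in the interaction from -1.22 to 0.56 for Adipoq, -1.78 to 0.42 for Cfd and -0.0165 to 0.25 for Cidea. In NR over vehicle they ranged from -6.54 to 3.58 for Adipoq, -1.09 to 5.00 for Plin1 and -2.98 to 3.90 for Cfd. The cause of these changes was not tested. Lep, Ucp1 and Elovl3 have too few counts in most libraries for a test. Counts under 10 in several high-fat diet libraries limit Adipoq, Plin1, Cidec, Cfd and Retn.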
